A study of Mus musculus with 22 samples.

Results

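The Hox gene clusters were examined in forebrains of E10.5 mouse embryos, as the CpGs lying from 2 kb upstream to 1 kb past each Hox gene and between the genes of a cluster in the RefSeq annotation of GRCm38. The set held 38 of the 39 Hoxa, Hoxb, Hoxc and Hoxd genes (the remaining gene was not analysed here). Of 12074 reference CpGs in these 497 kb, 5624 had a value in at least 1 embryo, 1915 had a value in at least 5 control and 5 EtOH-exposed embryos, and 673 were measured in all 22. These 1915 CpGs were part of 592579 autosomal CpGs that met the same minimum.

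Hox genes encode homeodomain transcription factors that are switched on in a fixed order along the head-to-tail axis, an order that mirrors their positions in the clusters. They pattern the hindbrain, spinal cord, vertebrae and limbs, and the forebrain lies in front of the territory where they are expressed. Silent Hox clusters are a classical target of Polycomb repressors, and their CpG-rich sequence is generally free of DNA methylation in embryonic tissue. No expression was measured in these samples, so neither the silence of the genes nor the labelled tissue could be checked.

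Wild type C57BL/6 females received 2 subcutaneous injections 2 h apart at E2.5, before implantation, either of saline (control) or of ethanol at 2.5 g/kg each (EtOH-exposed). DNA methylation was measured by reduced representation bisulfite sequencing (RRBS), in which DNA is cut at CCGG with MspI, bisulfite converts unmethylated cytosines, and the methylation level is the percentage of reads that keep a C. Each of the 6 control and 16 EtOH-exposed libraries came from 1 embryo with no visible defect, drawn from 3 control and 6 EtOH-exposed litters. Sex and litter of the single embryos were not in the labels, so embryos that share a litter entered as separate samples. The comparison asked whether the exposure left a methylation difference in the forebrain 8 days later.

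Total methylation calls ran from 68126469 to 132488556 in controls and from 89179413 to 216223892 in EtOH-exposed embryos, and the median number of reads per Hox CpG ran from 37 to 105 and from 57 to 157. The libraries also differed in the level read at unmethylated CpGs anywhere on the autosomes: EtOH-exposed embryos 4, 5 and 6 stood apart at 2.65 to 2.81%, against 0.955 to 1.89% in controls. Differences between the groups in cluster levels, gene means and named tiles are given with and without them.

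Reference sequences are given for the 2 states that were found. The 4 stretches that follow are, in each cluster, the 150 bases before a transcript start site with the most measured CpGs. Stretches touching an exon of a coding transcript were left out of this choice. The Hoxd8 stretch lies before a start site inside the gene, whose annotated extent begins at chr2:74704615. CpGs are in capitals, each stretch is read 5′ to 3′ on its gene's strand, and the letters are from GRCm38. They stand for the unmethylated state, with mean control levels of 0.541% over 8 CpGs for Hoxa13, 1.36% over 4 CpGs for Hoxb13, 0.998% over 3 CpGs for Hoxc13 and 1.08% over 15 CpGs for Hoxd8.
Hoxa13, chr6:52260881-52261030, minus strand: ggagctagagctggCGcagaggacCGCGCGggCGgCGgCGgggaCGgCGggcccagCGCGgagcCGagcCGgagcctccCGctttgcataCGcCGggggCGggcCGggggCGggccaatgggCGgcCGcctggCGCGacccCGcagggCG
Hoxb13, chr11:96194166-96194315, plus strand: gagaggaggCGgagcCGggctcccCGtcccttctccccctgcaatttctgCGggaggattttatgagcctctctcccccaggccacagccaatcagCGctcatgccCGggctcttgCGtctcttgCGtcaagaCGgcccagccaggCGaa
Hoxc13, chr15:102920981-102921130, plus strand: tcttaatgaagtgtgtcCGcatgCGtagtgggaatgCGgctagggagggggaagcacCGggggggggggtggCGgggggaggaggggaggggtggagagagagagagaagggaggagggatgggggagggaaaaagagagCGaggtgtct
Hoxd8, chr2:74705339-74705488, plus strand: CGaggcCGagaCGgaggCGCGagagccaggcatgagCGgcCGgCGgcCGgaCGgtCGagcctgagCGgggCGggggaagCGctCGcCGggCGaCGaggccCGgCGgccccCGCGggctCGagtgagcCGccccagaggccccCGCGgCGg
The 2 methylated tiles of the clusters both lay in the gap between Hoxb13 and Hoxb9, and their 100 bases are shown because they hold the methylated CpGs described further on. Each contains 4 CpGs in 100 bases, and the 150-base stretches hold 25 (Hoxa13), 10 (Hoxb13), 6 (Hoxc13) and 27 (Hoxd8). These counts are over unlike lengths. CpG number alone did not mark the state, since the Hoxa10 intron tile chr6:52232901-52233000 has 2 CpGs and stood at 1.15% in controls.
Hoxb13-Hoxb9 gap, chr11:96231301-96231400, plus strand: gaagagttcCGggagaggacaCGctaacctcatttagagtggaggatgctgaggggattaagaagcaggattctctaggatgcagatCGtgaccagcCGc
Hoxb13-Hoxb9 gap inside the pseudogene Gm11539, chr11:96248901-96249000, plus strand: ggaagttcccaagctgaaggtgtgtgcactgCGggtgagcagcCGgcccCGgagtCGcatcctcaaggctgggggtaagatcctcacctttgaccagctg

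In control forebrains the measured CpGs of the Hox clusters were almost free of methylation. Of the 1915 Hox CpGs, 1902 (99.3%) had a control mean under 10%, 5 lay between 10 and 50%, and 8 (0.418%) were at 50% or more. Over all autosomal CpGs measured the same way, 64.4% were under 10%, 3.53% were between and 32.1% were at 50% or more. The median control level was 1.20% for Hox CpGs and 1.62% for all CpGs. In tiles of 100 bp with at least 2 CpGs, 350 of 352 Hox tiles were under 10%, against 52.9% of all 114430 tiles.

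All 4 clusters shared this state. The median CpG level was 1.22% in Hoxa (chr6:52161417-52262880, 594 CpGs), 1.26% in Hoxb (chr11:96192316-96369254, 456 CpGs), 1.15% in Hoxc (chr15:102919131-103037856, 320 CpGs) and 1.18% in Hoxd (chr2:74666225-74766142, 545 CpGs). Hoxc had no CpG at 10% or more, with a highest control mean of 9.19%, so its run of neighbouring CpGs under 10% took in all 320 measured CpGs over 114 kb, from Hoxc13 to Hoxc4. The longest such run covered 406 CpGs and 116 kb in Hoxb, 474 CpGs and 87.3 kb in Hoxd, and 267 CpGs and 48.8 kb in Hoxa. The runs are not continuous sequence: the widest stretch without a measured CpG inside them was 12.3 kb in Hoxb, 12.1 kb in Hoxc, 9.42 kb in Hoxd and 7.84 kb in Hoxa.

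**Figure D1:**
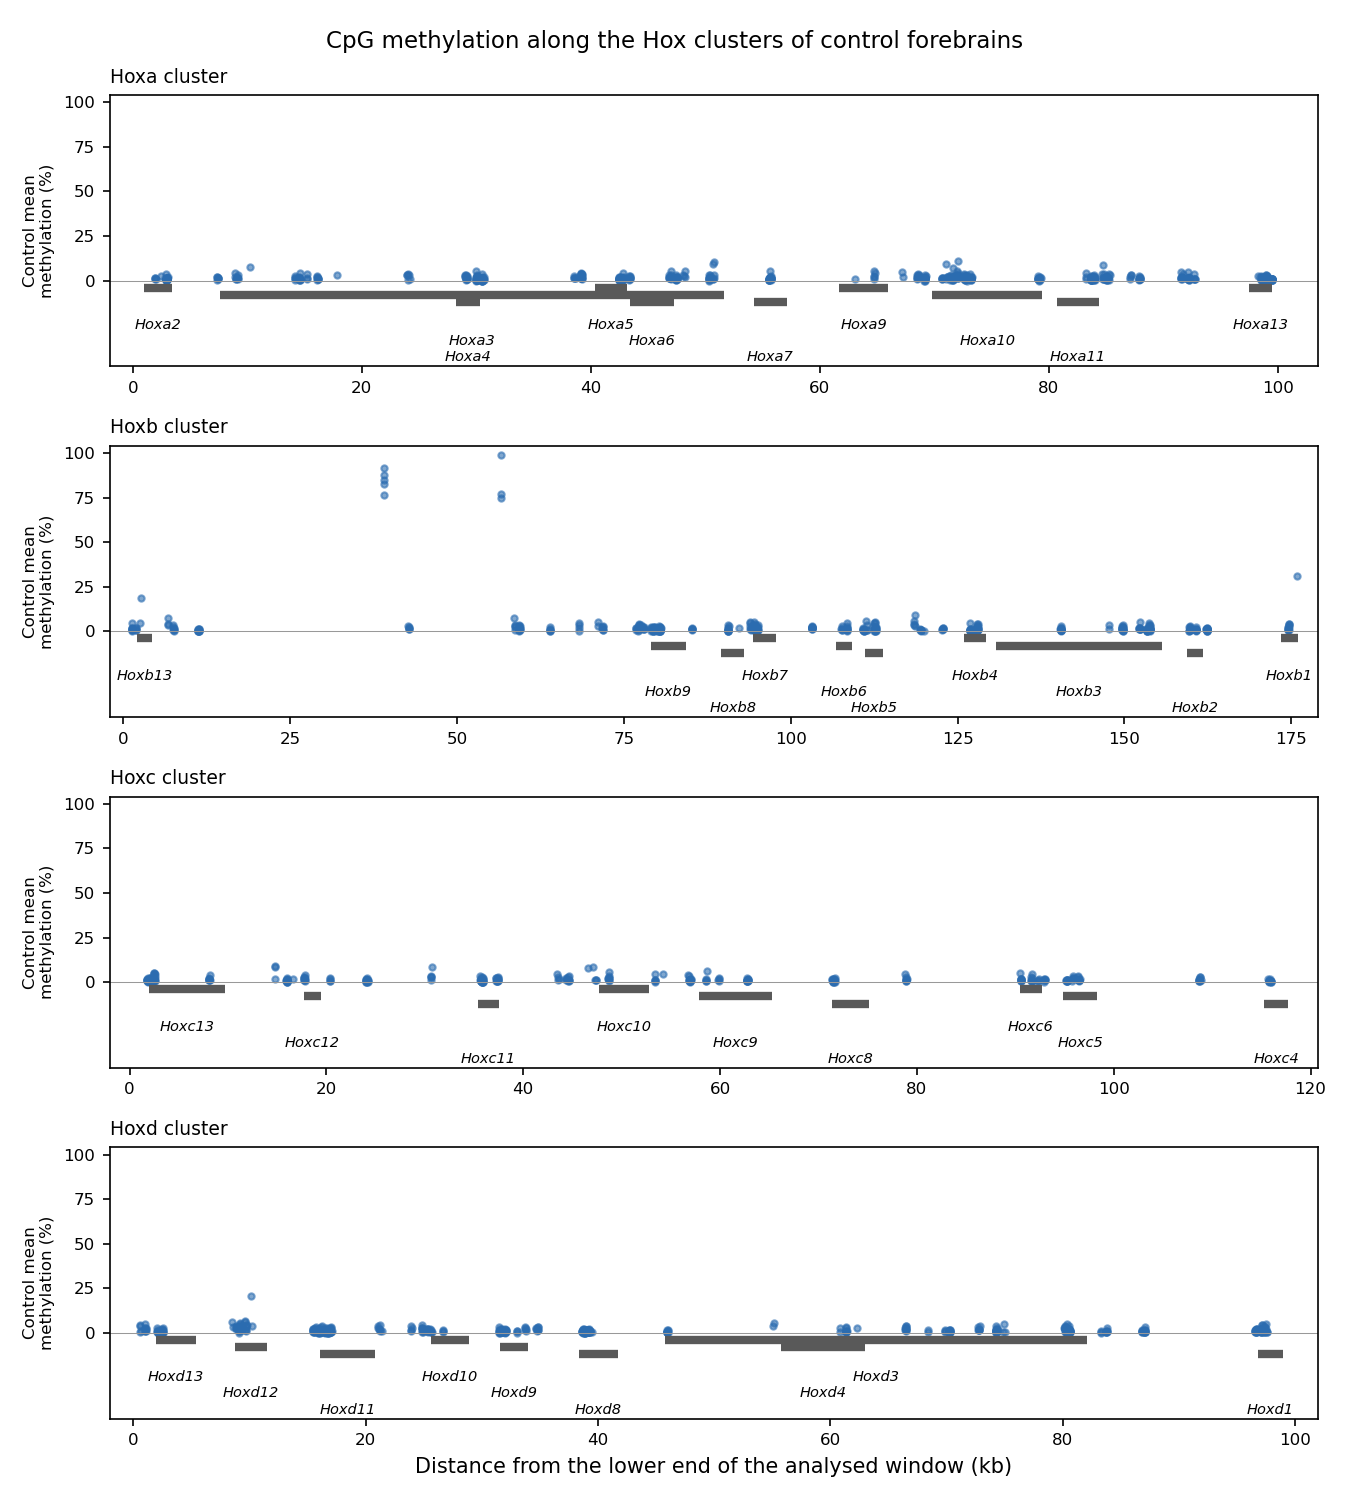
Control mean methylation level (%, vertical axis) of each measured Hox CpG (points) against distance from the lower end of the analysed window (kb), with gene extents as grey bars. The 8 CpGs at 50% or more form 2 groups in the gap between Hoxb13 and Hoxb9, which holds no Hox gene. The other points lie near 0 except single CpGs in Hoxb13, Hoxb1 and Hoxd12.

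The clusters are dense in CpGs. The reference holds 29.9 CpGs per kb in Hoxa, 28.2 in Hoxd, 21.4 in Hoxc and 20.8 in Hoxb, against 8.51 over the autosomes. Repeat-masked sequence made up 13.5% of Hoxa, 14.8% of Hoxd, 15.998% of Hoxc and 24.5% of Hoxb, against 33.5% of the autosomes. RRBS gave a value in at least 1 embryo for 52.7% of the CpGs of Hoxd, 51.8% of Hoxa, 44.7% of Hoxc and 38.9% of Hoxb, so the remaining CpGs have no value here.

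Low levels were found in every kind of position. The median control level was 1.10% for 375 CpGs within 2 kb upstream of a start site, 1.16% for 813 CpGs in coding exons, 1.07% for 133 in untranslated exons, 1.40% for 284 in introns, 1.26% for 68 within 1 kb past a gene and 1.38% for 242 between genes. The 8 methylated CpGs were all of the last kind. Of the 31 non-coding RNA genes annotated in the clusters and examined, 24 had a measured CpG, and their mean control levels ran from 0.732 to 2.51%. Haglr, a long non-coding RNA next to Hoxd1, stood at 1.13% over 41 CpGs, and Hoxa11os, antisense to Hoxa11, stood at 1.54% over 61 CpGs.

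Each of the 38 Hox genes had 8 to 237 measured CpGs in its own window, and each had a mean control level under 5%, with a range of 0.742 to 4.86% and a median of 1.44%. Over the 13918 autosomal protein-coding genes with at least 5 measured CpGs in the same kind of window, the median was 13.2% and 35.2% were under 5%. The long RefSeq models of Hoxa3 and Hoxd3 run across neighbouring genes, so part of their CpGs is counted for those neighbours as well.

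Hoxa13 was the lowest gene of its cluster, at 1.07% over 51 CpGs; it acts in the hindgut, genital tract and digits. Hoxa9, a gene of the posterior trunk and of blood progenitors, was the highest of Hoxa at 2.84%, on 8 CpGs. In Hoxb the lowest was Hoxb2, a hindbrain patterning gene, at 1.03% over 37 CpGs. Hoxb1, which sets the identity of the rhombomere that forms the facial nerve, was the highest of all at 4.86% over 11 CpGs. That mean rested on 1 CpG in its untranslated exon, chr11:96368144, which had a control mean of 31.1% ± 5.69 (SD, n = 5) and was read on the reverse strand alone.

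Hoxc4, a gene of the neck region, was the lowest gene of the 38 at 0.742% over 15 CpGs. Hoxc10, which acts in the lumbar spinal cord and hindlimb, was the highest of Hoxc at 2.66% over 18 CpGs. In Hoxd, Hoxd8, a trunk gene, was lowest at 0.951% over 69 CpGs, and Hoxd12, a gene of the distal limb, was highest at 3.52% over 37 CpGs. The Hoxd12 mean includes the CpG chr2:74676404, with a control mean of 20.4%. Among genes of equal rank in the 4 clusters, the 4 genes of rank 13 ran from 1.07 to 2.99%, the 4 of rank 9 from 1.32 to 2.84%, and the 4 of rank 4 from 0.742 to 1.99%. Other groups were narrower, such as the 2 genes of rank 2 (1.03 to 1.17%) and the 3 of rank 3 (1.46 to 1.59%). Groups by rank were not tested.

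**Figure D2:**
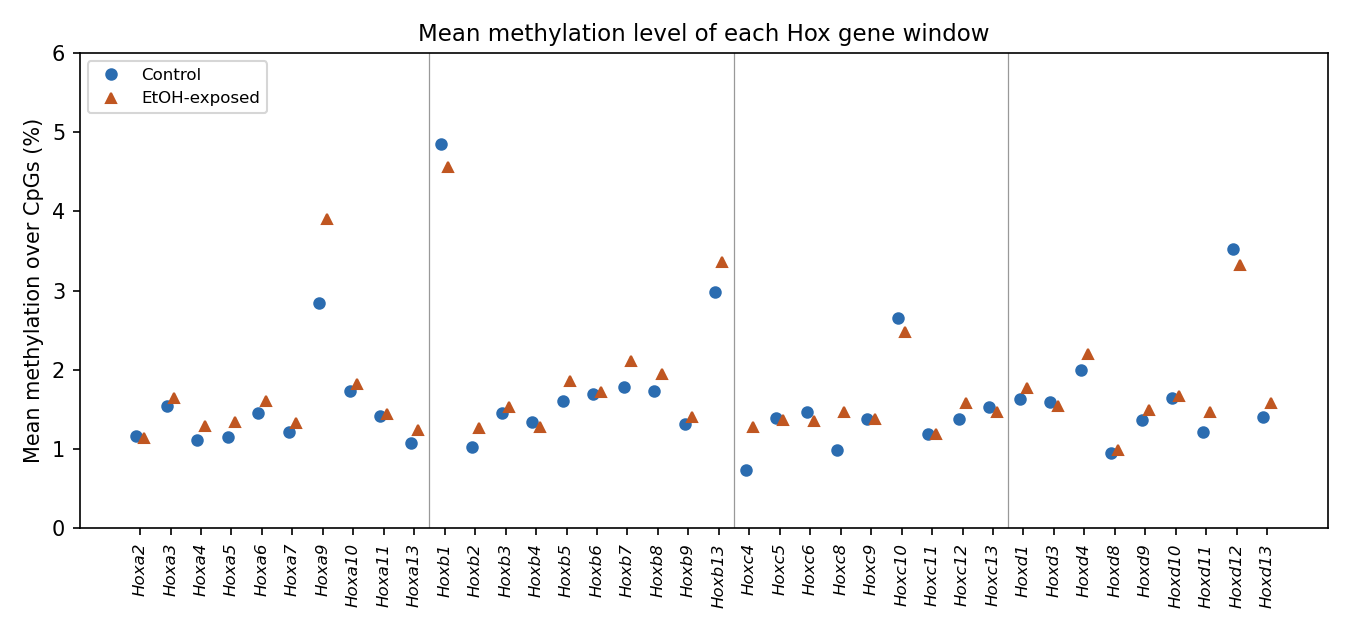
Mean methylation level over the measured CpGs of each of the 38 Hox gene windows (%, vertical axis), as circles for control and triangles for EtOH-exposed forebrains. All values lie under 5%, with Hoxb1 highest in both groups.

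Methylated tiles were found again outside the clusters, at distances limited by where tiles were measured. In the 200 kb on both sides of the 4 clusters, 67.8% of 152 tiles were under 10% and 27.0% were at 50% or more. The nearest tile at 50% or more lay 23.8 kb below Hoxd, on the side of Hoxd13, and 121 kb above it, past Hoxd1. Below and above in coordinates, the distances were 56.9 and 62.4 kb for Hoxa, 27.3 and 45.8 kb for Hoxb, and 51.2 and 65.7 kb for Hoxc. The single sides held from 9 tiles (above Hoxd and below Hoxc) to 43 tiles (below Hoxb), so differences by side were not interpreted. Evx1 and Evx2, homeobox genes that lie beyond Hoxa13 and Hoxd13, had all of their tiles under 10% (7 and 15 tiles).

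The methylated CpGs of the Hoxb13 to Hoxb9 gap fell into 2 places. The 5 CpGs at chr11:96231310-96231405, of which 4 lie in the tile printed above, were measured in all 22 embryos with 20 to 524 reads each, and were methylated on both strands. Their control means were 87.4% ± 3.69, 82.8% ± 3.13, 76.6% ± 4.02, 91.7% ± 3.36 and 84.6% ± 4.11 (SD, n = 6), in order of position. The other place, inside the pseudogene Gm11539, had 3 CpGs with control means of 77.2, 74.96 and 98.9% and values in 11 to 13 embryos. A pseudogene can share reads with the gene it was copied from, so those levels are less certain. They also need each of Controls 1, 3, 4, 5 and 6: without any of these the count of methylated CpGs fell from 8 to 5.

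The remaining 5 CpGs at 10% or more had intermediate levels, each in a Hox gene. The highest was the Hoxb1 CpG at 31.1%, with an EtOH-exposed mean of 28.7% ± 10.7 (SD, n = 14). A CpG in the coding exon of Hoxb13, chr11:96194910, stood at 18.9% ± 14.1 in controls and 23.7% ± 18.0 in EtOH-exposed embryos (SD, n = 5 and 15), ran from 2.33 to 61.5% over embryos, and was alike on the strands, at 22.2% of forward and 20.2% of reverse reads. CpGs in introns of Hoxa10 and Hoxa3 stood at 10.8% ± 4.25 and 10.3% ± 3.23 in controls (SD, n = 5), and the Hoxd12 CpG, at 20.4% ± 38.5 (SD, n = 6), is described with its tile; its EtOH-exposed mean was 13.6% ± 25.3 (SD, n = 16).

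Methylated CpGs with too few embryos for the main count lay mostly in the same gap. Of 3071 CpGs with values in 3 or more embryos, below that minimum, 35 had a mean of 50% or more: 32 lay between Hoxb13 and Hoxb9, 2 between Hoxd3 and Hoxd1, and 1 in Hoxd12. Those between Hoxd3 and Hoxd1, at 90.5% in 4 embryos and 80.6% in 5 embryos, lie in the gap that Haglr spans.

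Mean levels over the 5 methylated CpGs overlapped between the groups. The lowest, median and highest values were 82.8, 84.2 and 88.4% in controls and 72.2, 82.9 and 86.8% in EtOH-exposed embryos. The group means were 84.6% ± 1.996 (SD, n = 6) and 81.8% ± 3.67 (SD, n = 16). Of the EtOH-exposed embryos, 7 lay below every control and none above, with embryo 5 lowest. The CpGs were chosen on control levels, so these values are a description.

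The group means of the other methylated autosomal CpGs differed by a like amount, while single embryos varied. Over 31616 CpGs outside the clusters with a control mean of at least 50% and values in all 22 embryos, the group means were 87.2% ± 0.497 and 84.5% ± 3.19 (SD, n = 6 and 16). The Hox CpGs differed between groups by -2.84 percentage points and the others by -2.72, which leaves a difference of -0.122. Below every control were 6 embryos at both kinds of CpG, 1 at the Hox CpGs alone and 4 at the other CpGs alone, and the Hox level minus the other level ran from -6.56 (embryo 5) to 1.23 points (embryo 6). Without EtOH-exposed embryos 4, 5 and 6 the Hox difference was -1.65 points. The matching value for the other CpGs is not given here, so this figure does not set the Hox CpGs apart. No test was made on these scores.

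The spread over embryos was not equal along the 5 CpGs. At chr11:96231310, a CpG inside a CCGG site, controls had a lowest, median and highest level of 81.4, 87.7 and 91.9%, and EtOH-exposed embryos of 62.9, 80.7 and 90.5%, with 9 of 16 below every control. At chr11:96231388, outside such a site, the values were 71.1, 75.9 and 83.3% in controls and 68.5, 76.9 and 82.2% in EtOH-exposed embryos, with 1 of 16 below every control. Of the other CpGs outside CCGG sites, chr11:96231322 had 6 of 16 below every control (-3.52 points), chr11:96231398 had 4 (-2.12 points) and chr11:96231405 had 1 (-0.393 points). With CCGG sites left out, the mean difference over methylated Hox CpGs was -1.49 points.

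**Figure D3:**
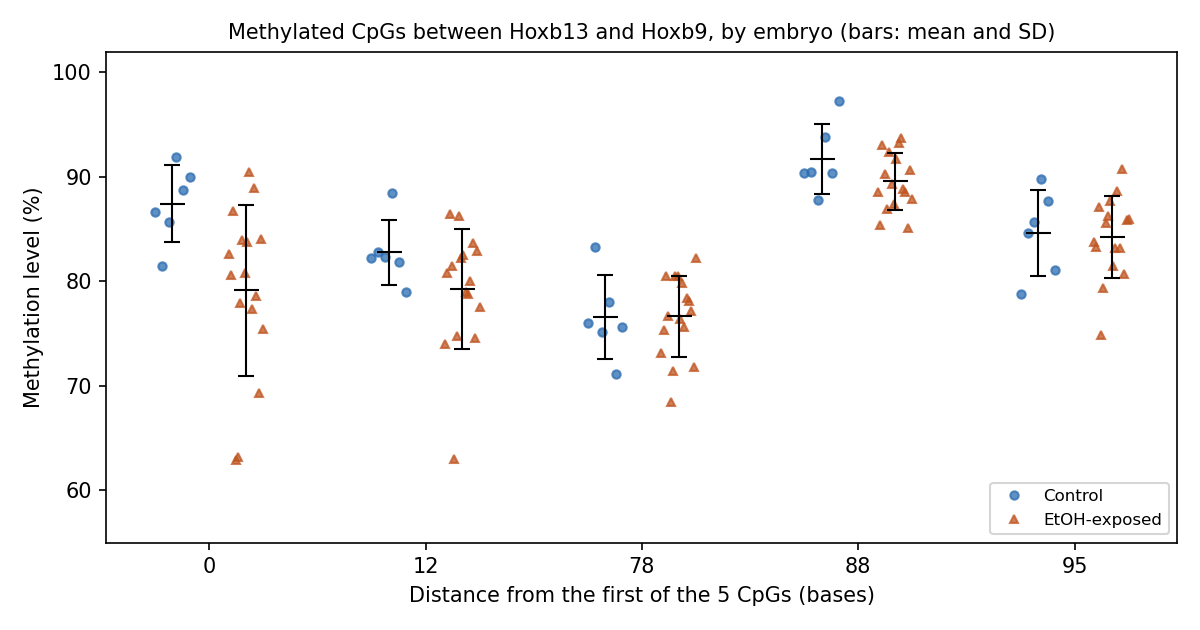
Methylation level (%, vertical axis) of each embryo at the 5 methylated CpGs between Hoxb13 and Hoxb9, labelled by distance from the first in bases and equally spaced; bars give the mean and SD of 6 control and 16 EtOH-exposed embryos. The groups overlap at each CpG, and the EtOH-exposed values under 65% are at the first and second CpG.

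Over whole clusters, the group means of control and EtOH-exposed forebrains differed by less than 0.1 points when all 22 embryos entered. The exposed means lay lower without embryos 4, 5 and 6, and higher in 13 samples with a like base level. Over CpGs measured in all 22 embryos, Hoxa stood at 1.38% ± 0.395 in controls and 1.46% ± 0.819 in EtOH-exposed embryos (SD, n = 6 and 16), Hoxc at 1.44% ± 0.447 and 1.42% ± 0.790, and Hoxd at 1.51% ± 0.477 and 1.4998% ± 0.943. Hoxb was higher, at 4.21% ± 0.328 and 4.198% ± 0.729, since 5 of its 140 CpGs are the methylated ones; without CpGs at 10% or more it stood at 1.23% ± 0.349 and 1.32% ± 0.818. The differences of 0.0712, -0.0123, -0.0201 and -0.0113 percentage points for Hoxa to Hoxd were each smaller than the SD between controls. Without embryos 4, 5 and 6 they were -0.238, -0.282, -0.332 and -0.398 points, still smaller than that SD, with EtOH-exposed means of 1.15% ± 0.531, 3.93% ± 0.492, 1.11% ± 0.467 and 1.11% ± 0.493 (SD, n = 13). Of the 16 exposed embryos, 3 lay above every control, 6 below and 7 within the control range in each of Hoxb, Hoxc and Hoxd. In Hoxa the counts were 4, 6 and 6.

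The exposed embryos lay on both sides of the controls. Their spread narrowed without embryos 4, 5 and 6 but stayed wider than that of the controls. Over the 667 Hox CpGs with a control mean under 10%, the lowest, median and highest embryo was at 1.07, 1.15 and 1.99% in controls and at 0.562, 1.32 and 2.93% in EtOH-exposed embryos. Of the 16, 3 lay above every control (embryos 4, 5 and 6), 6 lay below every control (embryos 1, 2, 3, 9, 12 and 14) and 7 lay within the control range. The SD was 0.419 in controls, 0.826 over the 16 EtOH-exposed embryos and 0.471 over the 13 without embryos 4, 5 and 6. Gene by gene, 32 of the 38 had their highest level in embryo 4, 5 or 6, and the same count over all autosomal genes is not given here.

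A similar spread of embryos appeared at unmethylated CpGs outside the clusters. Over 125903 autosomal CpGs outside the clusters with a control mean under 10%, controls had values of 0.955, 0.979 and 1.89% (lowest, median, highest) and EtOH-exposed embryos of 0.457, 1.24 and 2.81%. The control means were 1.38% at the Hox CpGs and 1.26% outside. Without embryos 4, 5 and 6 the EtOH-exposed means were 1.09% at the Hox CpGs and 0.971% outside. Across the 22 embryos the Hox level followed that outside level with Pearson's r = 0.997, and with r = 0.990 over the 19 without embryos 4, 5 and 6, a description over libraries that differ in depth and base level. The Hox level exceeded the outside level by 0.116 points ± 0.0889 in controls and by 0.117 points ± 0.0495 in EtOH-exposed embryos (SD, n = 6 and 16). The part of this shared base level in the Hox values was not tested.

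**Figure D4:**
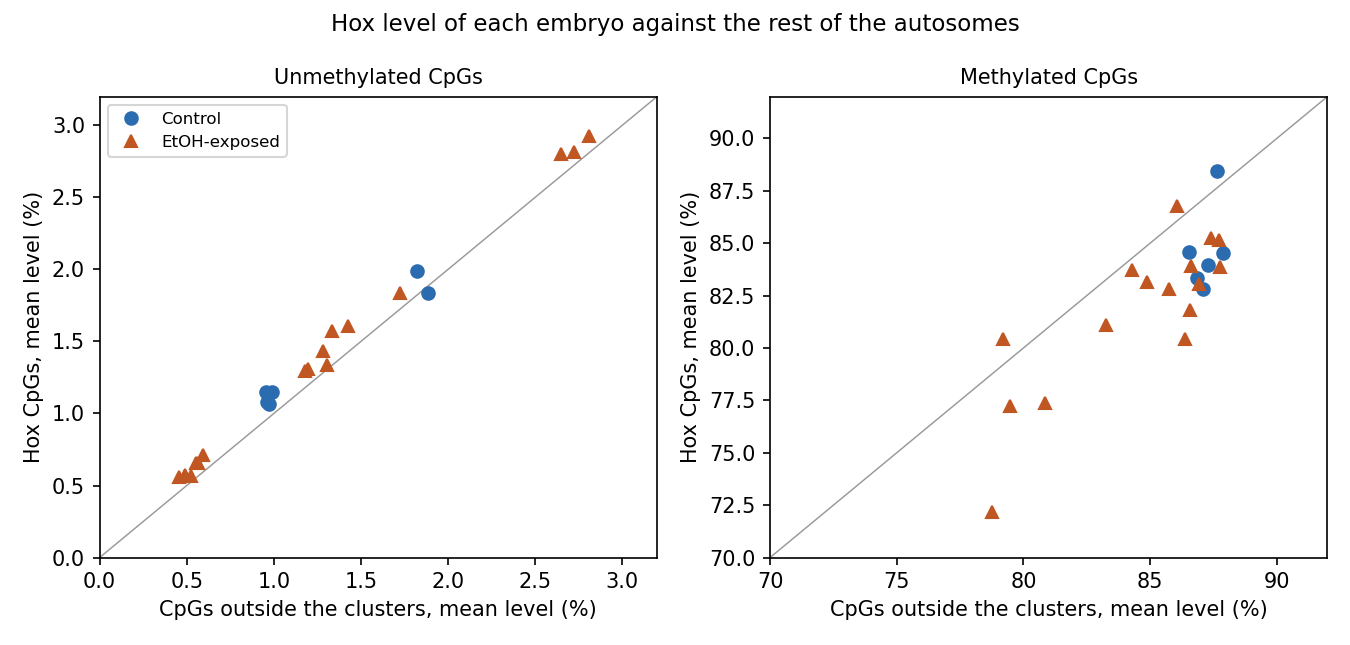
Mean Hox level of each embryo (%, vertical axis) against the mean level of the same kind of CpG outside the clusters (%, horizontal axis), for CpGs under 10% (left) and at 50% or more (right) in controls; the line marks equal levels. On the left the embryos lie close to the line, with EtOH-exposed embryos 4, 5 and 6 at the upper end.

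No Hox tile fell below the controls by the called size, and 1 was called higher. Tiles were compared by a logistic likelihood-ratio test over all 114430 autosomal tiles with Benjamini-Hochberg adjustment, and called when q was under 0.01 and the levels, weighted by coverage, lay 10 percentage points or more apart. Of the 352 Hox tiles 0 were called lower, beside 1.08% of all tiles, and 1 was called higher, beside 0.0516% of all tiles. Only 2 Hox tiles had a control level of 10% or more, against 47.1% of all tiles, so for the other 350 a call of lower was not possible. When the spread between embryos was estimated, by an F test with overdispersion or by limma, 0 Hox tiles and 0 of all tiles were called in either direction (0% each). At an unadjusted p under 0.05, 14 Hox tiles (3.98%) passed the F test, beside 5.77% of all tiles, and 4 (1.14%) passed limma, beside 4.45%.

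Hox differences were small in percentage points, from control levels mostly under 10%. By coverage-weighted levels, 345 of 352 tiles differed by less than 2 points and 351 by less than 5, and the median difference was 0.227 points against -0.127 over all tiles. Of the 352 tiles, 350 had a control mean under 10%, which limited how far they could fall. The counts within 2 and 5 points over all tiles, or over tiles of like level, are not given here. By q under 0.01 alone, 14 Hox tiles were lower, 3.98% beside 12.9% of all tiles, and 47 were higher, 13.4% beside 8.84% of all tiles. Without EtOH-exposed embryos 4, 5 and 6 the direction turned: 60 Hox tiles were lower, 17.05% beside 20.2% of all tiles, and 1 was higher, 0.284% beside 1.24%, and the median difference was -0.310 points against -0.360 over all tiles.

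The direction of the gene means depended on the same 3 libraries. Mean levels were higher in EtOH-exposed embryos for 28 genes and lower for 10 with all embryos, and higher for 3 and lower for 35 without embryos 4, 5 and 6. Over the 28 genes with at least 3 CpGs measured in all 22 embryos, 17 were higher and 11 lower. With all embryos the groups overlapped for each of the 38 genes, in that at least 1 exposed embryo lay within the control range. Of the 38, 36 differed by less than the SD between controls. No such counts over all autosomal genes are given here, so the gene counts do not set Hox genes apart. The largest positive gene difference, 0.944 points, was at Hoxa9, whose lowest, median and highest levels were 1.89, 2.84 and 4.09% in controls and 1.67, 3.80 and 5.92% in EtOH-exposed embryos, with 7 of 16 above every control. The largest negative, -3.78 points, was at Hoxb1, where Control 6 stood at 26.3% on a single measured CpG; without Control 6 it was -0.135, between means of 4.431% and 4.295%. Without embryos 4, 5 and 6 these differences were 0.726 points at Hoxa9 and -4.05 points at Hoxb1. Each embryo's gene mean was taken over the CpGs it had, 5 to 8 at Hoxa9. On the 3 Hoxa9 CpGs measured in all 22 embryos the difference was -0.0175 points, with 4 exposed embryos above and 4 below every control.

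The groups also overlapped in the genes with the lowest or highest level of a cluster, of which 3 are given here by embryo. Hoxc4 had lowest, median and highest levels of 0, 0.583 and 1.43% in controls and 0, 1.29 and 3.64% in EtOH-exposed embryos, with 5 of 16 above every control. Hoxd8 had 0.585, 0.810 and 1.44% in controls and 0.186, 0.813 and 2.48% in EtOH-exposed embryos, with 3 above and 6 below every control. Hoxd12 had 2.57, 3.10 and 6.22% in controls and 1.52, 2.87 and 6.09% in EtOH-exposed embryos, with none above and 6 below. The 6.22% was that of Control 6, which stood at 96.6% at the CpG chr2:74676404 described below. That CpG is part of the Hoxd12 mean. In all of these genes part of the exposed embryos lay within the control range. The mean differences were 0.665, 0.0316 and -0.329 points for Hoxc4, Hoxd8 and Hoxd12, and 0.431, -0.290 and -0.796 points without embryos 4, 5 and 6, so that of Hoxd8 changed sign.

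The tile called higher lay in the untranslated end of Hoxd12, chr2:74676401-74676500, past its coding sequence. Controls had values of 0.714, 1.08, 1.32, 2.74 and 18.0%, the last in Control 3, with Control 6 below the minimum of 2 CpGs. At the single CpG chr2:74676404, where Control 6 had a value, the group means lay the other way, at 20.4% in controls and 13.6% in EtOH-exposed embryos. EtOH-exposed embryos had a lowest, median and highest value of 0, 2.497 and 78.9%, with the high values in embryo 16 (78.9%), embryo 5 (47.8%), embryo 4 (20.4%) and embryo 6 (18.2%), followed by embryo 15 (14.1%) and embryo 8 (12.3%). The groups overlapped, and the medians were 1.32 and 2.497%. The coverage-weighted levels were 4.77 and 17.7%, a difference of 12.9 points (logistic likelihood-ratio test, q = 1.48e-16), while the F test gave q = 0.912 and limma q = 0.994.

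The call depended on single libraries, on the read minimum and on the strand. Without EtOH-exposed embryo 16 the difference was 7.65 points, without embryo 5 it was 8.98 and without embryos 4, 5 and 6 it was 7.17, none of them past 10 points. Without any of Controls 1 to 5 the tile had too few controls and was not tested. At a minimum of 5 reads, where Control 6 had a tile value, the tile differed by -2.57 points (q = 0.215 by the logistic test). The 30 bases around its CpG at chr2:74676404 (in capitals, plus strand, GRCm38) are shown because the strands of that CpG were read apart.
Hoxd12, chr2:74676390-74676419, plus strand: tttccggttttcaaCGtgttctttttcttt
On the forward strand, 6 embryos had 10 reads or more, and 63.6 to 96.6% of those reads were methylated: Control 3 (92.9%), Control 6 (96.6%) and EtOH-exposed embryos 4, 5, 6 and 16 (72.7, 81.9, 63.6 and 95.2%). On the reverse strand, 21 embryos had 10 reads or more, and the level ran from 0 to 5.69%. The 5 highest tile values were those of the libraries with 10 forward reads or more, Control 6 having no tile value. Embryos 15 and 8 had 1 forward read or none; their methylated reads were mostly on the reverse strand at the tile's other CpG, chr2:74676472, at 26.8 and 19.7%, where the other embryos with 10 reads or more ran from 0 to 10.4%. At the CpG 10 bases before it, inside a CCGG site, the same 6 embryos had forward levels of 60.6 to 93.5%, and the 3 embryos with 10 reverse reads had 43.8 to 91.7%. With reverse reads alone the tile differed by 0.545 points (q = 0.646 by the logistic test).

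**Figure D5:**
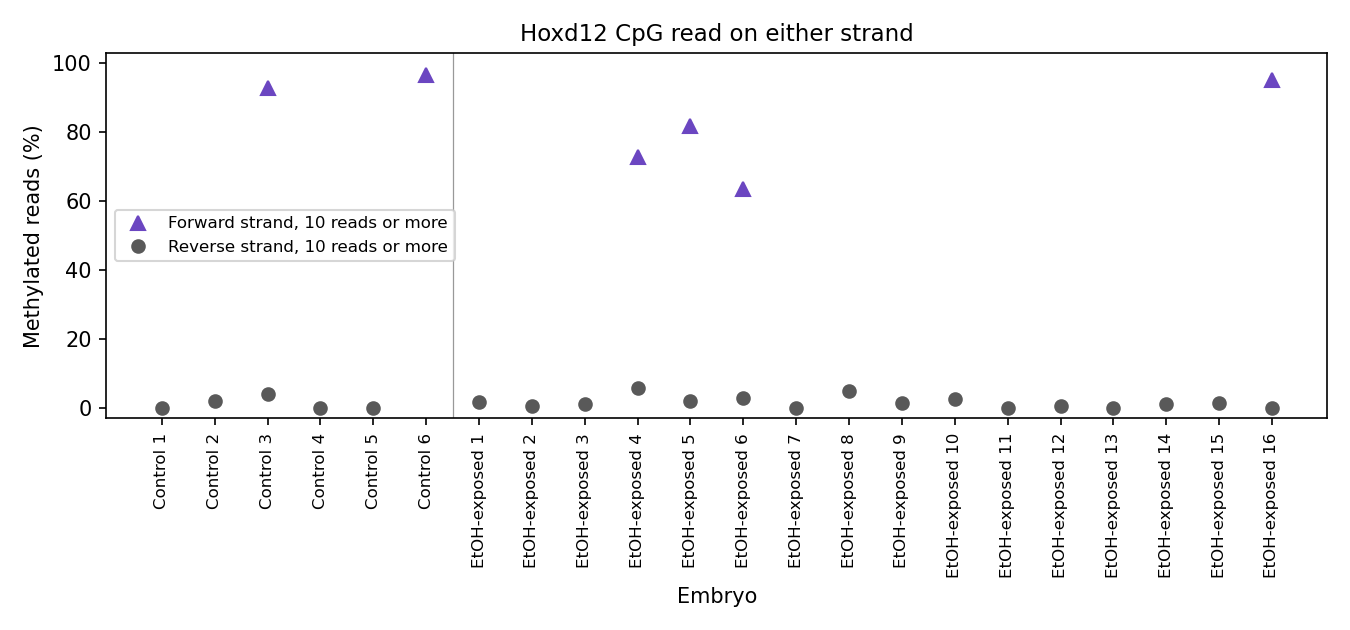
Methylated reads (%, vertical axis) at chr2:74676404 in Hoxd12 for each embryo, by strand, where the strand had 10 reads or more. Forward values lie at 63.6% or more in the 6 embryos that have them, and reverse values lie at 5.69% or less in all 21.

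Such unequal strands were rare in the clusters. Among 36842 pairs of a Hox CpG and an embryo with 10 reads or more on both strands, 97.3% agreed within 10 points and 14 (0.0380%) differed by 50 points or more, against 0.199% of all autosomal pairs. The 2 shares are over unlike levels, since 99.3% of Hox CpGs were under 10% against 64.4% of all autosomal CpGs. A share over CpGs of like level is not given here. These 14 pairs fell on 8 CpGs, and 5 of them were this Hoxd12 CpG. The others were in or near Hoxd10, Hoxa4, Hoxa6, Hoxa9, the Hoxb13 to Hoxb9 gap and the Hoxc12 to Hoxc11 gap, each in EtOH-exposed embryos 4, 5, 6 or 11.

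The other Hox tiles with the largest differences changed little. The next highest were a Hoxa10 intron tile, chr6:52232901-52233000, with control values of 0, 0.893 and 3.03% and EtOH-exposed values of 0, 2.99 and 4.48% (lowest, median, highest), and a tile near Hoxb13, chr11:96199801-96199900, with 0, 0.617 and 2.45% against 0, 1.98 and 5.04%. Both passed q under 0.01 in the logistic test (0.000495 and 4.40e-07) at differences of 2.49 and 2.40 points, and neither passed the F test (q = 0.830 and 0.843). These differences are weighted by coverage; between embryo means they were 1.17 and 1.43 points, and weighted but without EtOH-exposed embryos 4, 5 and 6, which had the most reads, 1.73 and 0.606 points. The groups overlapped in both tiles.

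Of the 3 largest negative differences by coverage-weighted levels, 2 were those of the methylated tiles. They were -3.34 points in the Gm11539 tile (q = 0.184 by the logistic test), -2.29 points in a tile upstream of Hoxd4, a hindbrain and neck gene (q = 0.0507), and -2.16 points in the methylated tile at chr11:96231301-96231400 (q = 0.00776, F test q = 0.889). Between embryo means the Gm11539 tile turned to 1.43 points higher, and the others were at -1.09 and -3.09 points. Without EtOH-exposed embryos 4, 5 and 6 the weighted differences were 0.437, -2.80 and -1.75 points, again with the Gm11539 tile turned. In the tile at chr11:96231301 the lowest, median and highest levels were 82.5, 84.2 and 87.9% in controls and 71.2, 81.9 and 86.7% in EtOH-exposed embryos. The highest tiles of the other clusters in controls were close to the rest: 5.62% ± 1.02 in Hoxa (chr6:52212101-52212200, an intron of the long Hoxa3 model), 6.53% ± 2.21 in Hoxc (between Hoxc13 and Hoxc12) and 4.77% ± 7.44 in Hoxd (the Hoxd12 tile), each with n = 5 (SD).

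Genes that act with or on Hox genes had shares of methylated tiles between those of the clusters and of all tiles, where 0.568 and 42.7% were at 50% or more. PBX, MEIS and PKNOX proteins bind DNA together with Hox proteins, and of the 97 tiles of these 9 cofactor genes 80.4% were under 10% and 18.6% at 50% or more. Among 19 regulators, which include Polycomb and Trithorax proteins and enzymes that break down retinoic acid, 199 tiles gave 79.4% and 18.1%. In the same fit 8 tiles of these lists and of the genes beside the clusters were called lower and 0 higher: 1 of the cofactor tiles (Pbx2), 6 of the regulator tiles and 1 of 59 tiles beside the clusters (Skap1), beside 1.08% of all tiles. The coverage-weighted difference was -15.3 points for Pbx2, against -4.76 between embryo means of 52.2% ± 11.3 and 47.4% ± 19.8 (SD, n = 5 and 10), and -27.6 points for Skap1, against -21.4 between means of 55.9% ± 8.82 and 34.6% ± 14.4 (SD, n = 5 and 16). Without EtOH-exposed embryos 4, 5 and 6 the embryo means of the Pbx2 tile turned direction, with 52.2% in controls and 56.9% in 7 EtOH-exposed embryos (4.69 points, -3.16 weighted by coverage), and Skap1 differed by -17.1 points (-18.01 weighted). The lists were written with earlier results of these data known.

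Of the regulators, Cyp26b1, which breaks down retinoic acid, had 3 tiles called lower and Kmt2a, a Trithorax histone methyltransferase, had 2 (-13.9 and -18.4 points weighted by coverage, -6.28 and -11.3 between embryo means). The Cyp26b1 tile at chr6:84574301-84574400 had control values of 15.4, 27.4 and 30.3% and EtOH-exposed values of 5.70, 15.8 and 28.2% (lowest, median, highest), overlapping groups with a coverage-weighted difference of -10.99 points and -9.70 between embryo means (logistic q = 6.15e-37, F test q = 0.843). Its other called tiles, starting at 84574501 and 84574601, differed by -12.8 and -14.5 points weighted by coverage and by -5.32 and -10.1 between embryo means. Cbx2, a Polycomb subunit, had 1 tile, at -11.3 points weighted by coverage and -15.4 between embryo means (q = 3.16e-11, F test q = 0.864). Without EtOH-exposed embryos 4, 5 and 6 the differences between embryo means were -1.46 and -6.68 points at Kmt2a (-3.50 and -6.63 weighted by coverage), -7.63, -1.77 and -5.79 at the Cyp26b1 tiles in the order given (-8.27, -4.20 and -6.41 weighted) and -12.2 at Cbx2 (-9.06 weighted). None of the 8 tiles passed the F test or limma, and without EtOH-exposed embryos 4, 5 and 6 the count of list tiles called lower fell to 1. Leaving out Control 1, 3, 4 or 6 took it to 2 and Control 5 to 1, but 6 of the 8 tiles had 5 controls and were no longer tested without one of theirs; leaving out any 1 EtOH-exposed embryo gave 7 or 8.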

How the data were processed

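Per the labels and the study's methods, the authors trimmed reads with Trim Galore 0.3.3 and mapped them to mm10 with BSMAP 2.90; the deposited files give, for each cytosine of a CpG and strand, the coverage as read counts and the percent of reads with C and with T. Methylated reads were coverage times percent, rounded. CpGs needed 10 reads on a strand, after which the strands were added. Tiles of 100 bp on chromosomes 1 to 19 needed 2 CpGs per sample and 5 samples per condition; a tile belonged to a cluster when its centre did. Each tile was tested by a logistic likelihood-ratio test without spread between embryos; the tile size, CpG and sample minimums and q threshold follow the study's methods, which name MethylKit but no test or overdispersion setting. An F test with overdispersion and limma 3.58.1 in R 4.3.3, on log2 ratios with 0.5 added to methylated and unmethylated reads, estimated that spread. Other steps used Python 3.11.15, numpy 2.4.6 and scipy 1.17.1, and the tests were tested on simulated data. All 5624 Hox positions were CpGs of GRCm38.p6. Depth sets the precision of single CpGs; PCR reads without molecular identifiers are not independent molecules.

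Cluster levels were means over CpGs measured in all 22 embryos and got no test. The text names the highest and lowest gene and the highest tile of each cluster, called tiles, the 3 largest differences in each direction, the longest runs under 10% and listed genes with a called tile. The members and lists were chosen with earlier results of these data known. One Hox gene of the rule is not reported here. Alternatives covered the test, read minimum, strands, CCGG sites, windows and samples left out.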

Additional observations from a re-analysis of the deposited data

Results flagged for a closer look

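3 values were singled out because 1 control lay far from the other controls, by Dixon's criterion for 5 or 6 samples, out of 31 values examined; chance singles out about 1 in 20 such groups. Over the 5 methylated Hoxb CpGs, Control 4 was at 88.4% against a control median of 84.2%. In the Gm11539 tile, Control 1 was at 50% on 56 reads against a control median of 88.8%. In the Hoxd12 tile, Control 3 was at 18.0% against a control median of 1.32%; it is the 1 control of that tile with 10 forward-strand reads or more.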

How the results depend on the processing

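The call of 1 higher Hox tile became 0 with the F test, limma, unweighted means, a difference of 20 points and the replicate block. It was also 0 without EtOH-exposed samples 4, 5 and 6, with 5 reads and with reverse reads alone. With values in all 22 samples, 3 CpGs per tile, CCGG sites left out or forward reads alone it was 0, but there the Hoxd12 tile was not tested. It remained 1 with 20 reads and with 3 samples per condition. In 13 samples with a like base level, the controls and EtOH-exposed samples 7, 8, 10, 11, 13, 15 and 16, it also remained 1. With each sample left out in turn it was 0 (Controls 1 to 5, where the tile has too few controls, and EtOH-exposed samples 5 and 16) or 1, and 0 lower throughout. At 5 reads the Hoxd12 difference reversed to -2.57 points; the cause was not tested. With single samples left out it ran from 7.65 to 14.97; without EtOH-exposed samples 4, 5 and 6 it was 7.17, and in the 13 samples 26.2.

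Same-numbered samples are different embryos and did not deviate together (correlations from -0.150 to 0.173), so the numbers do not pair them; with the replicate block 0 Hox tiles and 0 list tiles were called.

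The 8 list tiles called lower became 0 with the F test and limma, 4 with unweighted means and 1 at 20 points. Without EtOH-exposed samples 4, 5 and 6 and in the 13 samples 1 was called. In all 22 samples 1 was called, but only 154 of 355 list tiles could be tested. Fewer were also tested with 3 CpGs (276), 20 reads (243), the forward (234) or the reverse strand alone (241), with 3 called each. Without CCGG sites 4 of 294 were called, with 3 samples per condition 15 of 531 and with 5 reads 13 of 443. With single samples left out the count ran from 1 to 8. The values of 1 and 2 came where Control 1, 3, 4, 5 or 6 was left out and only 170 to 255 of 355 list tiles could be tested. In these settings 0 were called higher. These settings, the single strands, the subtraction of base levels, and the gene counts and differences, named tiles, tiles by q alone and embryo spread without EtOH-exposed samples 4, 5 and 6, and Hoxb1 without Control 6 were chosen after seeing the data.

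The 8 methylated CpGs became 15 at 5 reads, 5 at 20 reads, without CCGG sites, in the 13 samples or at a control mean of 80%, and 0 in gene bodies; with samples left out they ran from 5 to 8. The Hoxb difference moved to -0.545 points when weighted by coverage. With single samples left out, the differences ran from -0.0253 to 0.173 in Hoxa, -0.0961 to 0.0674 in Hoxb, -0.112 to 0.117 in Hoxc and -0.130 to 0.144 in Hoxd, and from -3.20 to -2.08 at the methylated CpGs. Without EtOH-exposed samples 4, 5 and 6 together they were -0.238, -0.282, -0.332, -0.398 and -1.65, and the gene counts of 28 higher and 10 lower became 3 and 35. The Gm11539 tile, at -3.34 points, turned to 1.43 with unweighted means and to 0.437 without these samples. In the 13 samples the cluster differences were 0.186, 0.162, 0.0479 and 0.00768 points for Hoxa to Hoxd. At the methylated CpGs the difference was -0.931 points in the 13 samples and -3.94 points with 20 reads. With CpGs measured in at least 5 samples per condition Hoxb differed by -0.305, against an SD between controls of 0.207 for those CpGs. No other cluster value moved by more than the SD between controls of the values as reported.

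RRBS gave values in at least 1 embryo for under 53% of the CpGs of each cluster. Of the 12074 reference CpGs, 1915 met the minimum of 5 samples per condition on which the levels rest. This limits what can be said of the gaps and of the CpGs below that minimum.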
